A study of Homo sapiens with 4 samples.

Results

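Hairpin RNAs directed at the same transcript are often used in pairs, and the arrays labelled profound 1 and profound 2 hold such a pair: 2 RUNX1 hairpins given the same label for knockdown depth. Gene expression in the array labelled profound 1 was compared directly with that labelled profound 2, as the difference of their deposited log2 signals, so that the control array does not enter the difference. A gene was described where it reached 4.5 log2 units in at least 1 of both arrays. Probe sets assigned to 1 gene symbol were used, and the probe set with the highest mean over the 4 arrays stood for a gene with several. This gave 9565 of the 22357 genes with a symbol of their own on the array, and 2 of the 4 arrays of the series. Just inside the limit lay PEX11G, at 4.48 in profound 1 and 4.5001 in profound 2, and just outside it SH3BP5, at 4.08 and 4.4994.

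The cells were MV4-11, an established acute myeloid leukaemia line of monocytic character with a KMT2A fusion and an activating FLT3 duplication. Cells on all 4 arrays carried a hairpin and were kept for 24 h in doxycycline at 3 µM. The hairpin of the control was aimed at luciferase (sh Luc), and the others at RUNX1 with a moderate effect, a profound effect (#1) and a profound effect (#2) per the labels. Neither the vector, nor any selection of transduced cells, nor the hairpin sequences were stated in the labels. Each group is 1 array (rep1), so no difference below has a replicate check or a p-value, and having 1 array a side limits how precise each value is. In bulk RNA, fewer cells that express a gene and less of its RNA per cell cannot be told apart.

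RUNX1 binds DNA as a dimer with CBFB and directs gene expression in developing blood cells, and leukaemias with KMT2A fusions often depend on it for growth. Much of what follows concerns the cell division cycle. There, E2F factors bound to a DP partner switch on the genes of DNA synthesis at the entry to S phase, and MYBL2 and FOXM1 act on the genes of mitosis. RB-family pocket proteins hold E2F in check until cyclin-dependent kinases release it.

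The probe set of RUNX1 is shared with the locus LOC100506403 and did not reach 4.5 in any array. It read 4.27 in control, 4.33 in moderate, 4.07 in profound 1 and 4.04 in profound 2, a difference of 0.03 log2 units between both profound arrays. Of the other family members, RUNX3 was at 7.75 against 7.74 (profound 1 against profound 2) and RUNX2 at 6.17 against 6.33, while CBFB was at 9.28 against 9.48. RUNX3 read 8.17 in control and 8.28 in moderate, above both profound arrays. In control and moderate RUNX2 read 6.23 and 6.16, and CBFB 9.29 and 9.30. The shared probe set of RUNX1 is near the floor of the array, so it gives little measure of how far each hairpin lowered its target. The description fields of both arrays name RUNX2 and RUNX3 as the targets, against their titles and genotypes, which were followed here. Markers bear out the labelled cell: of 11 MV4-11 markers on the array 10 were described, among them FLT3 (9.46 against 9.28), SPI1 (8.65 against 8.61) and LYZ (11.46 against 11.49). Of 48 markers in 7 lists of other cell types, 4 were described: NKG7 (6.41 against 6.66), EPOR (5.49 against 5.51), PF4 (4.97 against 5.06) and the B cell gene CD79A (4.80 against 4.12). CD3E, MS4A1, HBB, COL1A2 and EPCAM, picked after their values were seen, read at most 2.63 in all 4 arrays (COL1A2 in control). The mast cell and basophil list had 0 described members but reached 5.07 in control. The mean level of a list lay between 2.62 and 3.29 in profound 1 and between 2.53 and 3.40 in profound 2.

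Cells with hairpin 1 had lower levels of the genes of DNA replication and mitosis than cells with hairpin 2, and higher levels of a smaller and dimmer set that includes HMOX1, SLC7A11, BCL6 and ARRDC3. At 2-fold, 36 of 9565 genes were lower in profound 1 (0.376% of genes described) and 28 were higher (0.293%), 64 in all (0.669%). At 1.5-fold, 333 were lower (3.48%) and 228 higher (2.38%), 561 in all (5.87%). The median difference over all genes described was 0.00 and its robust SD (scaled median absolute deviation) 0.26 log2 units. For the other pairs of arrays this SD was 0.15 (moderate and control), 0.17 (profound 2 and control), 0.18 (profound 2 and moderate), 0.23 (profound 1 and moderate) and 0.27 (profound 1 and control), so that each pair with profound 1 was wider than each pair without it. In the class of genes with a mean level of 7 to 8 (1807 genes), 73 were lower and 12 higher at 1.5-fold, with a robust SD of 0.24 against 0.13 for moderate and control. In profound 2 the genes lower at 2-fold had a median level of 7.16 and the higher ones 4.32, against 6.47 for all genes described. By the rule profound 2 is the higher array for the former and the lower array for the latter, so part of this gap is built in. By the mean of both arrays, 8 lower and 15 higher genes lay under 5. At a mean of 7 to 8 there were 10 lower and 0 higher genes. Of the 28 higher genes 16 read below 4.5 in profound 2, and of the 36 lower genes 8 did so in profound 1.

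**Figure D1:**
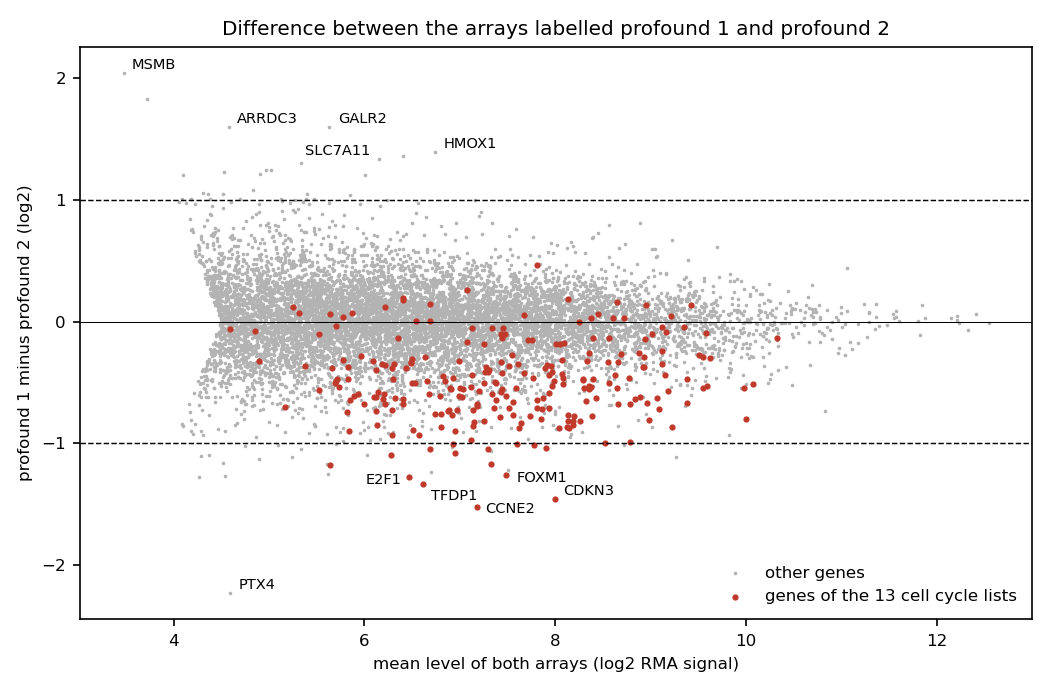
Difference between profound 1 and profound 2 (vertical axis, log2 units) against the mean level of both arrays (horizontal axis, log2 RMA signal) for 9565 genes, each a point, with dashed lines at 2-fold. Of the 248 genes of 13 cell cycle lists (red) 225 lie below 0, while the genes above the upper line are mostly dim.

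The control and moderate arrays, which the comparison does not use, were set beside both. Among the 36 genes lower at 2-fold, both reference arrays lay nearer to profound 2 in 29 (80.6%), nearer to profound 1 in 2 (PTX4 and RNY3P9) and on different sides in 5. Over all genes described the first share was 46.8%. Of the 28 higher genes, both lay nearer to profound 2 in 16 (57.1%) and nearer to profound 1 in 7, namely CXCR3, FBXL13, GAPT, RNA5SP51, SLC25A23, ZNF117 and ZNF493. At 1.5-fold the share with both nearer to profound 2 was 79.0% for the 333 lower genes but 44.3% for the 228 higher genes, below that of all genes described. The median difference from control of the 36 lower genes was -1.18 in profound 1 and -0.03 in profound 2, and that of the 28 higher genes was 0.92 and -0.17. In the moderate array these medians were -0.17 and 0.38. The comparisons with control share 1 control array. Against it, 454 genes were lower at 1.5-fold in profound 1 (4.75%) and 285 higher (2.98%), 77 lower in profound 2 (0.805%) and 103 higher (1.08%), and 44 lower in moderate (0.46%) and 55 higher (0.575%). At 2-fold either way the counts were 95 (0.993%), 9 (0.0941%) and 6 (0.0627%). Of the 4 arrays, profound 1 was the lowest for 34.0% of genes described and the highest for 32.3%, and profound 2 for 25.7% and 22.3%.

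The largest single difference was that of PTX4, a gene of the pentraxin family. PTX4 read 3.27 in control, 3.49 in moderate, 3.48 in profound 1 and 5.71 in profound 2. It was thus above 4.5 in profound 2 alone, and since the other arrays read below that limit no fold is given. ALDH3B2, an aldehyde dehydrogenase gene, read 5.21 in control, 5.65 in moderate, 5.02 in profound 1 and 6.19 in profound 2, and was likewise highest in profound 2. RNY3P9, a Y RNA pseudogene, had the same shape at lower levels (3.63 against 4.91). INHBA, which encodes the activin A subunit, read 6.31 in control, 5.84 in moderate, 5.48 in profound 1 and 6.58 in profound 2, with both reference arrays between the profound ones. GAPT, a GRB2-binding adaptor of blood cells, was highest in moderate, at 6.17, and lowest in profound 2 (5.38 against 4.29).

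**Figure D2:**
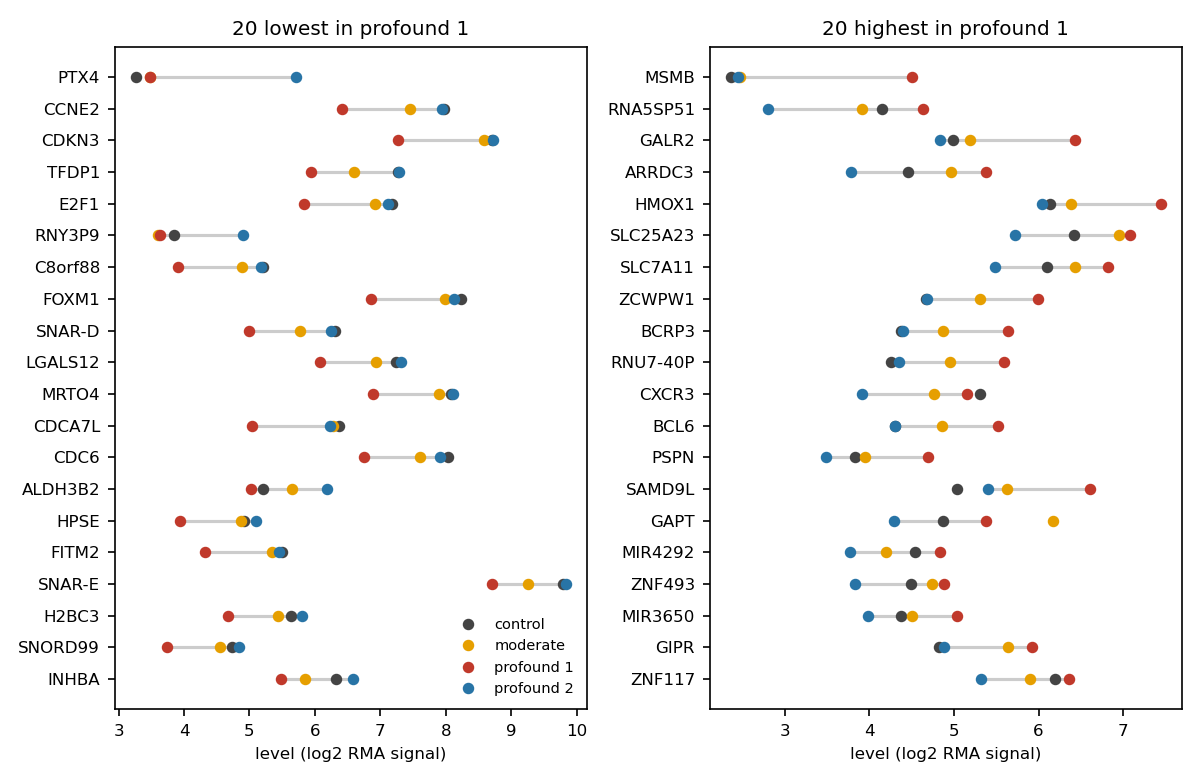
Levels (log2 RMA signal) of the 20 genes furthest below 0 and the 20 furthest above, 1 row a gene and 1 point an array, with a grey line joining profound 1 and profound 2. For most genes at left the profound 1 point stands alone below the other 3, and for MSMB, GALR2 and HMOX1 at right it stands alone above them.

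The E2F network was lower in profound 1 at several of its members. CCNE2, the cyclin E2 that activates CDK2 at the entry to S phase, read 7.97 in control, 7.45 in moderate, 6.41 in profound 1 and 7.94 in profound 2, which is 2.88-fold lower in profound 1 than in profound 2. TFDP1, the main DP partner of E2F factors, read 7.27 in control, 6.60 in moderate, 5.94 in profound 1 and 7.28 in profound 2. E2F1, an activating E2F, read 7.18 in control, 6.92 in moderate, 5.83 in profound 1 and 7.11 in profound 2. In each of these, control and profound 2 lay within 0.1 of each other and profound 1 was lowest. The repressive E2F7 (5.73 against 6.83) and E2F8 (6.41 against 7.49), which E2F1 itself induces, and the mitotic activator MYBL2 (8.58 against 9.39) were lower by 1.5-fold too, as was E2F2 (5.63 against 6.23). Paralogues and partners did not follow: E2F3 was at 6.50 against 6.30, E2F4 at 8.86 against 9.01, TFDP2 at 6.27 against 6.15 and the pocket protein genes RB1 and RBL2 at 9.10 against 9.14 and 8.25 against 8.26. In all, 6 of 17 described members of the E2F list were lower at 1.5-fold (35.3%) and 0 higher, with a median of -0.27. Over all genes described 3.48% were lower and 2.38% higher. The median of the E2F list was -0.54 where 5.5 log2 units were required.

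Promoter windows of genes lower in profound 1 held the letters of an E2F site in a larger share than those of all genes described, a description with no test. RefSeq promoter windows (GRCh38.p14, 250 bases before to 50 after the start) were matched by symbol for 7573 of the 9565 genes. Searched on both strands, TTTCCCGC, TTTCGCGC, TTTGCCGC or TTTGGCGC was found in 39 of 250 windows of genes lower at 1.5-fold (15.6%), in 7 of 157 windows of higher genes (4.46%), in 5.93% of those of genes described and in 3.33% of all 27305 windows. Read the other way, 39 of 449 genes with a match were lower at 1.5-fold (8.69%), against 211 of 7124 without one (2.96%). Stretches with a match upstream of the start are shown for some of the genes lower in profound 1. Each is printed on the gene's strand with the match in capitals. The genes shown were picked from E2F factors, CDC25A and genes of replication and histones. Genes outside these groups held such a match too, among them CLUH (difference -0.97), NEMP2 (-0.91) and MRPL18 (-0.85).

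TFDP1 (chr13:113584613-113584660, plus strand): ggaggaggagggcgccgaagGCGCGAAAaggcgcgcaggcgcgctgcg
E2F1 (chr20:33686386-33686438, minus strand): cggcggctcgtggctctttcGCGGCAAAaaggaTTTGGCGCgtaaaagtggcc
E2F2 (chr1:23531248-23531295, minus strand): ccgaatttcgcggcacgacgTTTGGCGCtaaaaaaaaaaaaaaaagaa
CDC25A (chr3:48188434-48188481, minus strand): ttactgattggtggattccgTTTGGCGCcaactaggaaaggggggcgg
GINS2 (chr16:85688958-85689005, minus strand): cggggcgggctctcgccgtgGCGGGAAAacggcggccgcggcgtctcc
MCM6 (chr2:135876502-135876615, minus strand): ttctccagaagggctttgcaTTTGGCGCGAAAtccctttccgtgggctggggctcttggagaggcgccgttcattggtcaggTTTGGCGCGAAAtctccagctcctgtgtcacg
TYMS (chr18:657594-657641, plus strand): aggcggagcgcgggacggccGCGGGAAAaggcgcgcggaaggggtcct
POLA1 (chrX:24693761-24693808, plus strand): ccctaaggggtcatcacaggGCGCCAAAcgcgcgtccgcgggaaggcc
H2AC14 (chr6:27814800-27814847, minus strand): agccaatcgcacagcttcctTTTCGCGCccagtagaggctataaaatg

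The 2 stretches of MCM6 and E2F1 that hold several matches show the site in both orientations, and in MCM6 overlapping matches on opposite strands occur at 2 places. A match is a description of letters and no evidence of binding. The CHR element TTTGAA, found in promoters of mitotic genes, was in 50 of 250 windows of lower genes against 9.72% of those of genes described, and the CCAAT box (CCAAT) in 49.6% against 37.7%. Windows of higher genes held these at 12.7% and 35.7%. The cyclic AMP response element TGACGTCA was in 7.2% of windows of lower genes against 3.58%, and the E-box CACGTG in 8.8% against 10.9%. RUNX sites (TGTGGT or TGCGGT) were in 17.2% of windows of lower genes, 17.8% of those of higher genes and 18.9% of those of genes described. The CEBP-ATF composite element TGATGNAA, which ATF4 dimers bind, was in 3.2% of windows of lower genes, 2.55% of those of higher genes and 1.6% of those of genes described, against 3.67% of all windows. In the 22 windows of genes lower at 2-fold, the E2F letters were in 6 and the CHR in 2 (9.09%). RUNX letters were in 6 (27.3%), the E-box in 4 (18.2%) and the CCAAT box in 16 (72.7%). The cyclic AMP response element was in 1 (4.55%) and the CEBP-ATF element in 0. The CHR, RUNX, E-box and CEBP-ATF shares thus did not keep the order seen at 1.5-fold. The motifs differ in length and base composition. Of lower genes in none of the cell cycle lists, 10.5% (17 of 162) had the E2F letters. Of the described genes of the 13 cell cycle lists joined below, whether lower or not, 20.6% (44 of 214) had these letters.

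**Figure D3:**
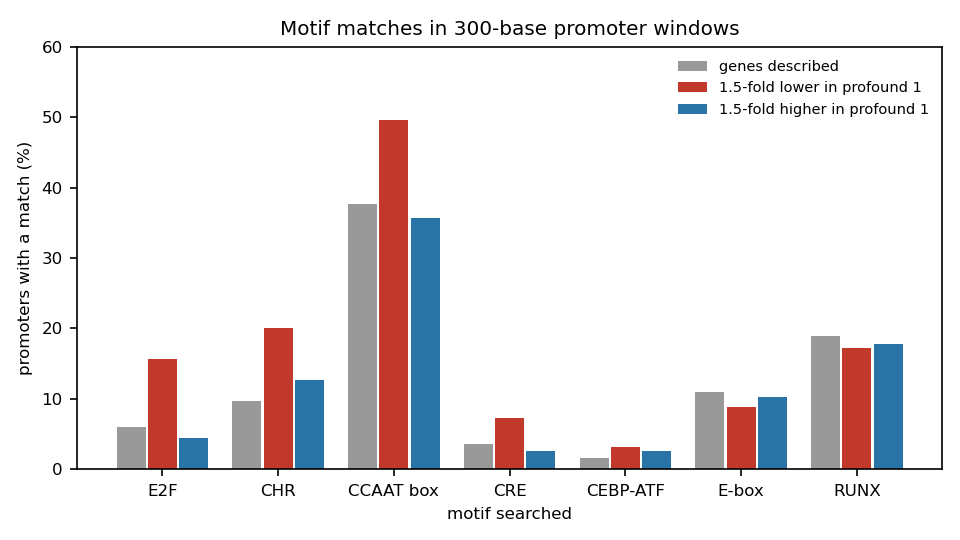
Percentage of RefSeq promoter windows with at least 1 match (vertical axis) for 7 motifs (horizontal axis), in genes described (grey), genes 1.5-fold lower (red) and genes 1.5-fold higher (blue) in profound 1. The E2F bar of lower genes stands at 15.6% against 5.93%, and the RUNX bars lie between 17.2% and 18.9%.

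Cyclins and their kinases were lower at 1.5-fold in 10 of 22 members (45.5%, against 3.48% of genes described) and higher in 0. The median was -0.56, and over all genes described 2.38% were higher. CDKN3, a phosphatase that acts on CDK1 and CDK2 and peaks in mitosis, read 8.70 in control, 8.58 in moderate, 7.27 in profound 1 and 8.73 in profound 2. SKP2, the ubiquitin ligase subunit that marks p27 for breakdown, read 9.17 in control, 9.14 in moderate, 8.29 in profound 1 and 9.28 in profound 2, and CDC25A, which removes inhibitory phosphate from CDKs, 7.57 in control, 7.29 in moderate, 6.63 in profound 1 and 7.6 in profound 2. All 3 were lowest in profound 1 alone. CDK1 (7.68 against 8.55), CCNF, CCNE1, CDC25B, CCNA2 and CCNB2 also passed 1.5-fold. The G1 kinases CDK4 (9.11 against 9.20) and CDK6 (9.49 against 9.36) and the testis and myeloid cyclin CCNA1 (8.23 against 8.04) did not. CDK inhibitors showed no such difference: 0 of 4 described passed, with CDKN1A at 5.64 against 5.62, CDKN1B at 8.96 against 9.04 and extremes of -0.29 (CDKN2D) and 0.28 (CDKN2A).

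Origin licensing loads the MCM helicase onto DNA before S phase, and firing turns it on. Of 15 licensing genes 7 were lower at 1.5-fold (46.7%, against 3.48% of genes described) and 0 higher (median -0.55). CDC6, the loader of MCM, read 8.03 in control, 7.6 in moderate, 6.74 in profound 1 and 7.91 in profound 2, and MCM10 8.38 in control, 8.25 in moderate, 7.27 in profound 1 and 8.28 in profound 2. MCM6 (8.72 against 9.44), the licensing inhibitor GMNN (6.84 against 7.53), MCM2, MCM3 and ORC1 followed. Of the other origin recognition subunits, ORC6 (6.63 against 7.18) and ORC5 (7.64 against 7.79) were below 0 without passing 1.5-fold. ORC2 (7.21 against 6.94), ORC3 (7.70 against 7.65) and ORC4 (6.49 against 6.31) were the 3 list members above 0. Firing genes were lower at 1.5-fold in 8 of 15 (53.3%) and below 0 in all 15 (median -0.62). CLSPN, the adaptor of the replication checkpoint, read 8.31 in control, 7.91 in moderate, 7.09 in profound 1 and 8.10 in profound 2, and GINS2 of the GINS complex 7.62 in control, 7.45 in moderate, 6.43 in profound 1 and 7.44 in profound 2. GINS1 (6.53 against 7.30) and TICRR (7.74 against 8.51) were next, followed by RECQL4, CDC7, CDC45 and GINS4.

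At the fork, 7 of 23 polymerase, clamp and loader genes were lower at 1.5-fold (30.4%, against 3.48% of genes described) and 0 higher. Their median was -0.38. The nuclease-helicase DNA2 (6.37 against 7.23), the catalytic subunit POLA1 of polymerase alpha (7.0 against 7.71), the flap nuclease FEN1 (7.58 against 8.29) and the primase PRIM1 (7.99 against 8.64) led, with POLE2, RFC3 and POLE. Genes that supply nucleotides were lower in 5 of 8 (62.5%, median -0.78). SLC29A1, the nucleoside importer, read 7.89 in control, 7.73 in moderate, 6.77 in profound 1 and 7.83 in profound 2, and TYMS, which makes thymidylate, 9.11 in control, 9.01 in moderate, 8.02 in profound 1 and 9.02 in profound 2. RRM2, the S-phase subunit of ribonucleotide reductase, was at 7.72 against 8.54 and CTPS1 at 7.03 against 7.81, and TK1 passed as well. The RRM2 difference was -0.51 when all its probe sets were averaged, 1 of which is listed under an older symbol.

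Replication also needs chromatin to be rebuilt. For comparison with the counts here, 3.48% of genes described were lower at 1.5-fold and 2.38% higher. Of 15 genes of chromatin assembly and maintenance methylation 5 were lower and 0 higher (median -0.47): CDCA7L, a MYC-interacting protein gene (5.04 against 6.23), the histone chaperones ASF1B (7.19 against 8.06) and CHAF1B (6.73 against 7.56), the helicase HELLS (6.42 against 7.18) and the methyltransferase SUV39H2. Core and linker histone genes, which are transcribed in S phase, were lower in 8 of 19 and higher in 0 (median -0.53). H2BC3 read 5.63 in control, 5.43 in moderate, 4.68 in profound 1 and 5.80 in profound 2, H2BC17 5.48 in control, 4.85 in moderate, 4.24 in profound 1 and 5.26 in profound 2 and H2BC13 6.46 in control, 6.66 in moderate, 5.68 in profound 1 and 6.65 in profound 2. H2AC14 (5.79 against 6.70) and H2BC14, which lie head to head over 1 promoter region, were both lower, as were H2BC9, H1-5 and H2BC26. Histone genes are near-identical copies, so their probe sets may share signal. Recombination and Fanconi repair genes were lower in 6 of 22 (27.3%, median -0.48). Furthest below were the Fanconi E2 enzyme UBE2T (7.6 against 8.47) and the nuclease EXO1 (6.70 against 7.57). The helicases BLM (7.80 against 8.58) and FANCM (5.44 against 6.19) came next. Mismatch and excision repair held 1 of 11 (9.09%), the uracil glycosylase UNG (7.38 against 8.02).

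Mitotic genes were lower to a like extent. The counts that follow stand against 3.48% of genes described lower at 1.5-fold and 2.38% higher. FOXM1, the transcription factor of the mitotic programme, read 8.23 in control, 7.98 in moderate, 6.85 in profound 1 and 8.12 in profound 2, and the mitotic kinases MELK and PBK were at 6.17 against 7.22 and 7.38 against 8.42. With topoisomerase TOP2A (9.59 against 10.40), DEPDC1, CDCA3 and NEK2, 7 of 19 proliferation genes passed 1.5-fold and 0 were higher (median -0.55). Centromere and kinetochore genes were lower in 15 of 29, with a median of -0.59. CENPI (5.82 against 6.75), the NDC80 complex subunit SPC25 (6.11 against 7.04), OIP5, which helps to place CENPA (5.39 against 6.30), and SKA1 (6.50 against 7.40) led. Mitotic kinesins and spindle genes were lower in 10 of 25 and below 0 in all 25 (median -0.55), among them the spindle assembly factor TPX2 (8.79 against 9.66) and the kinesins KIF20A (7.76 against 8.61), KIF18A (6.85 against 7.66) and KIF18B (6.52 against 7.25). Cohesin and condensin genes were lower in 7 of 21 (median -0.33), with SMC1A (7.71 against 8.59), NCAPD3 (7.45 against 8.25), NCAPG2 (7.35 against 8.13) and NCAPH (7.50 against 8.22), and checkpoint and anaphase genes in 5 of 17 (median -0.52), with separase ESPL1 (5.70 against 6.55), UBE2C (6.50 against 7.24), MAD2L1 (6.61 against 7.33) and UBE2S (5.88 against 6.52).

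Joined, 13 cell cycle lists (those above without the histones, the CDK inhibitors and mismatch and excision repair, a grouping made with results known) hold 248 described genes, of which 98 were lower at 1.5-fold (39.5%, against 3.48% of genes described) and 0 higher. The median was -0.50, against 0.01 for the 9317 genes outside these lists. Profound 1 was the lowest of the 4 arrays in 219 of the 248 genes (88.3%), against 34.0% of genes described. These genes, 248 of the 9565 described, make up 29.4% of the 333 lower genes and 15 of the 36 lower at 2-fold. Against the shared control array, the list medians of origin licensing were -0.81 in profound 1, -0.13 in profound 2 and -0.17 in moderate, and those of centromere genes -0.73, -0.15 and -0.14. Across the 13 lists profound 2 and moderate were thus close to each other, with profound 1 apart.

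**Figure D4:**
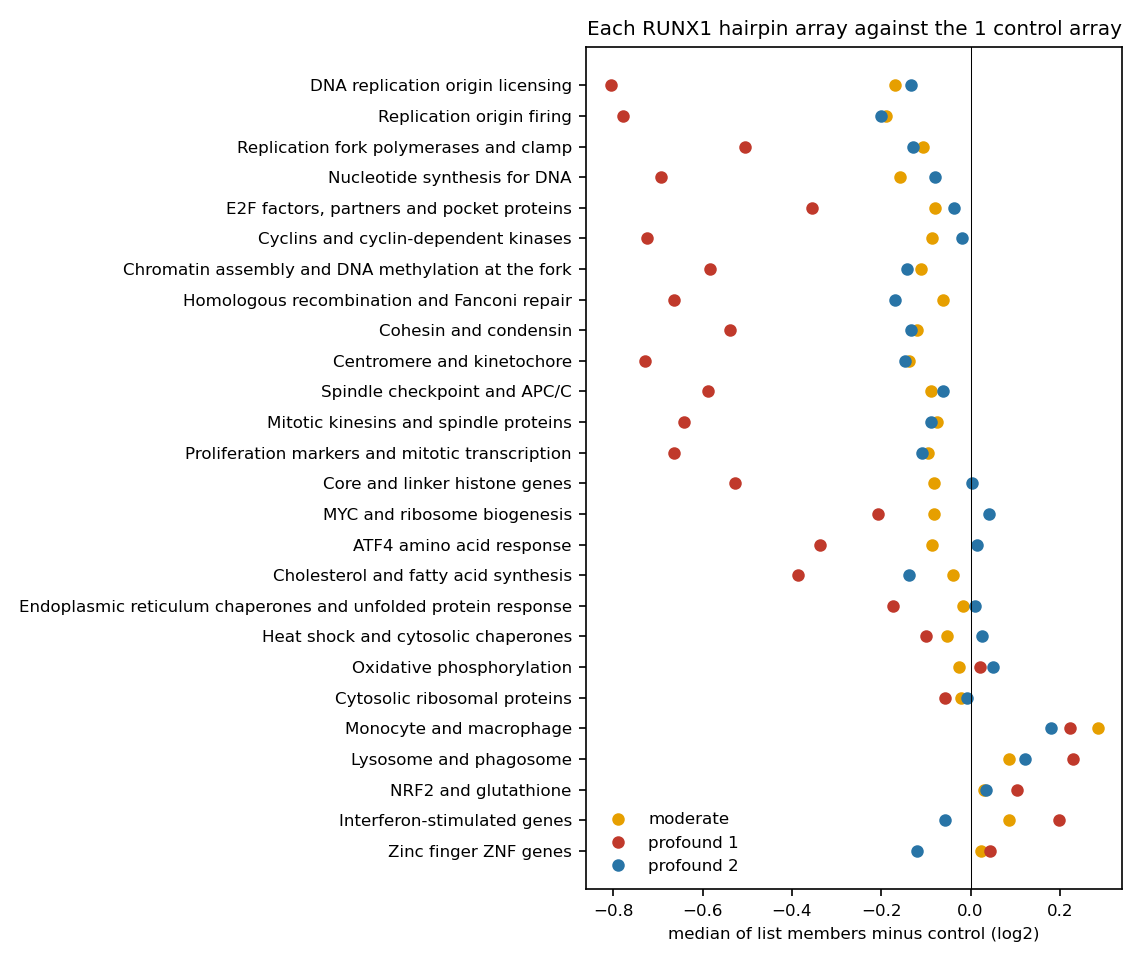
Median difference from the 1 control array (horizontal axis, log2 units) of the described members of 26 gene lists (vertical axis) in moderate (orange), profound 1 (red) and profound 2 (blue). In the first 14 lists the red points lie between -0.81 and -0.35 and the orange and blue ones between -0.20 and 0.00.

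In the ATF4 list, the response to amino acid shortage, 6 of 22 members were lower at 1.5-fold (27.3%, against 3.48% of genes described) and 1 was higher. The list's median was -0.36, with 21 members below 0. PSAT1 and PHGDH of serine synthesis were at 9.36 against 10.29 and 5.77 against 6.63, the glutamine importer SLC1A5 at 8.23 against 9.09 and the stress sensor SESN2 at 4.58 against 5.60; CHAC1 and PYCR1 also passed. PSAT1 read 10.21 in control, 9.88 in moderate, 9.36 in profound 1 and 10.29 in profound 2, so that moderate lay between profound 1 and the other arrays. ATF4 itself was at 9.26 against 9.29. The exception was SLC7A11, the cystine importer, which read 6.09 in control, 6.43 in moderate, 6.82 in profound 1 and 5.48 in profound 2. Its partner subunit SLC3A2 was at 8.54 against 8.88. Endoplasmic reticulum chaperones, with a median of -0.19, had 1 lower member of 19 (5.26%), MANF (4.70 against 5.37). Of the tRNA synthetases 0 of 19 passed, with AARS1 at 9.11 against 9.64 and QARS1 at 9.57 against 9.33.

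MYC-linked and ribosome biogenesis genes were below 0 in 25 of 25 members but mostly by little (median -0.26). At 1.5-fold 2 of 25 were lower (8.0%, against 3.48% of genes described). MRTO4, which assembles the large ribosomal subunit, read 8.07 in control, 7.90 in moderate, 6.89 in profound 1 and 8.11 in profound 2, and NPM1, a nucleolar chaperone, was at 5.19 against 5.82, the other member past 1.5-fold. Cytosolic chaperones were below 0 in 15 of 15 with 0 at 1.5-fold (median -0.22), from HSPH1 (9.25 against 9.64) to HSP90AA1 (5.56 against 5.57). Small nucleolar and Cajal body RNAs were lower in 7 of 120 (5.83%, against 3.48% of genes described) and higher in 0, with a median of -0.13. SNORD99 (3.73 against 4.84), SNORD1A (4.39 against 5.34), SNORA26 (4.66 against 5.51) and SNORD93 (5.49 against 6.17) led, most of which lie within host transcripts whose signal may enter. Against the control array the family's median was lowest in moderate (-0.18), with -0.11 in profound 1 and 0.02 in profound 2. Profound 1 was the lowest of the 4 arrays in 38 of the 120, and profound 2 the highest in 51. Over all genes described the same held for 34.0% and 22.3%. The small NF90-associated RNAs SNAR-D (4.99 against 6.24) and SNAR-E (8.71 against 9.83) were lower as well, and belong to a family of near-identical copies. Cytosolic ribosomal proteins held 1 of 49 (2.04%), the paralogue RPL39L (4.96 against 5.75), and mitochondrial ones 1 of 70 (1.43%), MRPL18 (6.05 against 6.90). Both shares lie below the 3.48% of genes described. Oxidative phosphorylation genes had a median of -0.02 and 0 of 23 passed.

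Sterol and fatty acid synthesis genes were lower in 3 of 22 (13.6%, against 3.48% of genes described) and below 0 in 19 (median -0.23). SQLE, the squalene epoxidase, read 8.10 in control, 8.05 in moderate, 7.10 in profound 1 and 7.97 in profound 2, the desaturase SCD was at 8.24 against 8.92 and FADS2 at 4.81 against 5.41. FITM2, which helps to form lipid droplets, read 5.5 in control, 5.35 in moderate, 4.33 in profound 1 and 5.46 in profound 2. LGALS12, a galectin of myeloid and fat cells that sits on lipid droplets, read 7.23 in control, 6.93 in moderate, 6.07 in profound 1 and 7.31 in profound 2. Both were lowest in profound 1, with the other 3 arrays within 0.4 of each other. HPSE, the heparanase that cleaves heparan sulphate, was at 3.94 against 5.10 and C8orf88, an eIF4E-binding protein gene, at 3.91 against 5.18. Other lower genes were the chemokine receptor CCR2 (6.58 against 7.49), the proteasome lid subunit PSMD11 (8.47 against 9.28), the kinase PIM1 (6.76 against 7.37) and VEGFA (5.13 against 5.83). The p53 targets TRIAP1 (5.91 against 6.58) and PLK3 (4.61 against 5.26) were lower too. PSMD11 was 1 of 25 in its list (4.0%) and the p53 targets 2 of 22 (9.09%), against 3.48% of genes described. The median of the p53 list was 0.01, with 12 members above 0 and 10 below.

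**Figure D5:**
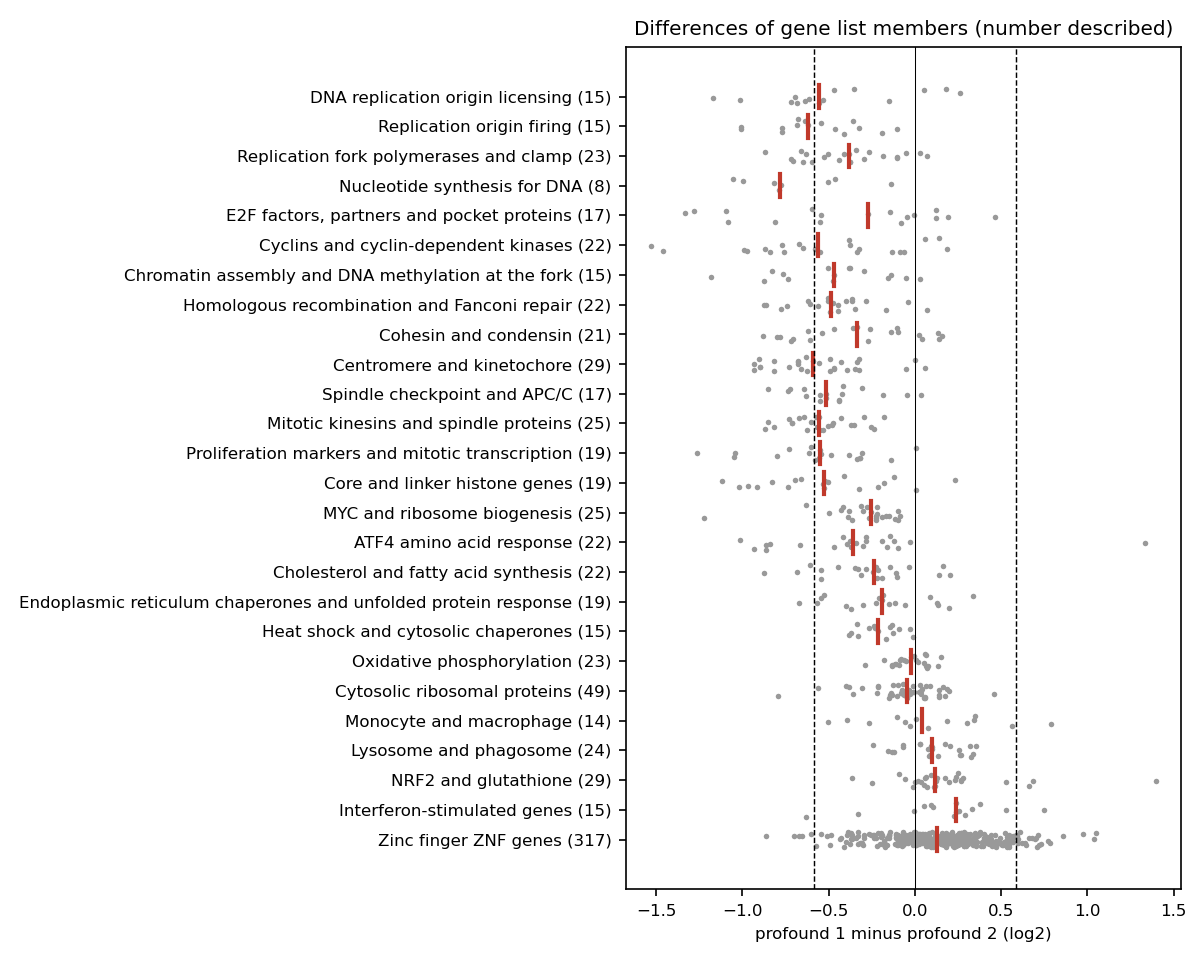
Difference between profound 1 and profound 2 (horizontal axis, log2 units) of each described member (grey points) of 26 gene lists (vertical axis, number described in brackets), with the list's median (red bar) and dashed lines at 1.5-fold. The medians of the 13 cell cycle lists lie between -0.78 and -0.27, and those of the last 7 lists between -0.05 and 0.24.

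On the higher side, redox genes included 1 of the largest differences. HMOX1, the haem-degrading oxygenase that NRF2 and loss of BACH1 induce, read 6.14 in control, 6.38 in moderate, 7.44 in profound 1 and 6.04 in profound 2, 2.63-fold higher in profound 1 than in profound 2. The other NRF2 and glutathione genes past 1.5-fold were GSTM4 (5.91 against 5.23) and ME1 (5.38 against 4.72), so that 3 of 29 were higher (10.3%, against 2.38% of genes described) and 0 lower, with a median of 0.11. NQO1 (8.83 against 8.30), GCLM (8.33 against 8.06) and TXNRD1 (7.40 against 7.39), also NRF2 targets, and the paralogue HMOX2 (5.52 against 5.62) did not pass. HMOX1 and SLC7A11 were both lowest in profound 2 and highest in profound 1, and for HMOX1 the other 3 arrays lay between 6.04 and 6.38.

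ARRDC3, an alpha-arrestin that turns down surface receptors and is raised when PI3K signalling falls, read 4.46 in control, 4.97 in moderate, 5.38 in profound 1 and 3.78 in profound 2. BCL6, a transcriptional repressor and a FOXO target, read 4.30 in control, 4.86 in moderate, 5.52 in profound 1 and 4.30 in profound 2. They were the only members of the glucose and FOXO list of 21 at 1.5-fold on the higher side, against SESN2 on the lower one, and the list's median was 0.09. The arrestins TXNIP (8.63 against 8.45), ARRDC4 (6.05 against 5.67), ARRDC1 (6.24 against 6.27) and ARRDC2 (5.57 against 5.68) did not pass. SLC25A23, a calcium-dependent mitochondrial carrier of ATP and phosphate, read 6.42 in control, 6.95 in moderate, 7.08 in profound 1 and 5.72 in profound 2, where the low value is that of profound 2. PDK1, which restrains pyruvate dehydrogenase, was the 1 of 18 glycolysis genes past 1.5-fold (7.67 against 7.07). The glucose and FOXO list had 9.52% higher and 4.76% lower, and glycolysis 5.56% and 0.0%, against 2.38% and 3.48% of genes described.

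Receptor genes among the 20 largest differences are given beside the counts of the receptor lists. GALR2, a galanin receptor, read 4.99 in control, 5.19 in moderate, 6.43 in profound 1 and 4.83 in profound 2, and the incretin receptor GIPR 4.83 in control, 5.64 in moderate, 5.93 in profound 1 and 4.88 in profound 2. CXCR3, a chemokine receptor, read 5.31 in control, 4.77 in moderate, 5.15 in profound 1 and 3.92 in profound 2: here profound 2 was the lowest of the arrays, and profound 1 was below control. CSF2RA, the GM-CSF receptor alpha chain, was at 7.97 against 7.21, the adhesion molecules ICAM3 and ICAM1 at 6.0 against 5.11 and 4.6 against 3.75, and the monocyte carboxylesterase CES1 at 8.96 against 8.17. CES1 was close to its moderate level of 8.87, with control at 7.92. At 1.5-fold, 1 of 20 cytokine receptors (5.0%), 1 of 14 monocyte and macrophage genes (7.14%) and 2 of 13 integrin and adhesion genes (15.4%) were higher. Over all genes described this share was 2.38%. In each of these 3 lists 0 were lower. The list of leukocyte G protein-coupled receptors does not include CXCR3. Of its 14 described members 0 were higher and 1 lower (CCR2, 7.14%, against 3.48% of genes described), with a median of -0.12. Of lectin and Siglec receptors 0 of 8 passed either way (median 0.17). The monocyte list's median was 0.04, and granule proteins held 0 of 13 either way, with CTSG at 9.62 against 10.04 and CST3 at 8.35 against 8.04.

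SAMD9L, an interferon-inducible restraint on growth of myeloid cells, read 5.04 in control, 5.62 in moderate, 6.61 in profound 1 and 5.40 in profound 2, while its paralogue SAMD9 was at 6.76 against 7.0. The list of interferon-stimulated genes, which does not include SAMD9L, had 1 of 15 higher, RSAD2 (4.56 against 3.81), and 1 lower, IFI6 (5.19 against 5.82). Each is 6.67% of the list, against 2.38% higher and 3.48% lower of genes described. The list's median of 0.24 came down to 0.08 when no level was required. Zinc finger genes of the ZNF family were higher in 22 of 317 (6.94%, against 2.38% of genes described) and lower in 5 (1.58%, against 3.48%), with a median of 0.13. ZNF493 (4.88 against 3.83), ZNF117 (6.36 against 5.33), ZNF836 (6.11 against 5.14) and ZNF461 (5.25 against 4.40) were the furthest above, and ZNF804A (5.05 against 5.91), ZNF367 (5.76 against 6.46), ZNF714 and ZNF628 below. In this family profound 2 was the lowest of the 4 arrays in 149 of 317 genes, against 25.7% of genes described, and the median differences from control were 0.04 in profound 1 and -0.12 in profound 2. Many ZNF genes are paralogues of similar sequence, so their probe sets are uncertain.

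The remaining genes among the 20 furthest above were mostly dim or poorly annotated. MSMB, a secreted protein gene known from prostate, read 2.37 in control, 2.47 in moderate, 4.5 in profound 1 and 2.46 in profound 2. It was above the floor in profound 1 alone, where it met the limit of 4.5 narrowly. RNA5SP51, a 5S RNA pseudogene (4.64 against 2.80), RNU7-40P (5.59 against 4.35), BCRP3 (5.64 against 4.40), the microRNA genes MIR4292 (4.83 against 3.78) and MIR3650 (5.04 against 3.99), the neurotrophic factor gene PSPN (4.70 against 3.49) and the histone reader ZCWPW1 (5.99 against 4.69) complete the set. The probe sets of microRNA genes may pick up their host transcripts. Of 152 described microRNA genes 13 were higher at 1.5-fold (8.55%) and 9 lower (5.92%), against 2.38% and 3.48% of genes described. Low level goes with larger differences here: of the 1401 genes with a mean level under 5, 82 were higher and 57 lower at 1.5-fold. Its part in the microRNA counts was not tested. Requiring 5.5 log2 units left 15 genes higher at 2-fold, and after cyclic loess 19 of the 28 stayed past it, because 8 others lay between 0.98 and 0.99 and MSMB dropped under the level limit. All 36 lower genes stayed past 2-fold after cyclic loess.

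Programmes of cell identity held few genes past 1.5-fold between both hairpins. Over all genes described the share either way was 5.87%, so a count of 0 in a short list says little. Of myeloid transcription factors 0 of 17 passed 1.5-fold (median 0.02), with KLF4 at 4.54 against 4.75 and LYL1 at 7.37 against 6.94. Of the HOXA and MEIS programme 0 of 9 described did (median 0.10), from DOT1L (7.59 against 7.83) to JMJD1C (8.69 against 8.51). The HOXA genes themselves were not analysed here. Antigen presentation genes held 0 of 15 (median 0.08), with CIITA at 5.35 against 4.94 and HLA-DQA1 at 6.45 against 6.58. Lysosomal genes were above 0 in 18 of 24 but all within 1.5-fold (median 0.10), up to HEXA (7.10 against 6.74), as were autophagy genes in 12 of 15 (median 0.14), up to NBR1 (8.20 against 7.63). In the BCL2 family the BH3-only gene BMF was the 1 of 19 past 1.5-fold (5.26%), at 5.64 against 5.05. Splicing factors (0 of 30), nuclear pore genes (0 of 25), histone methylation enzymes (0 of 27), clock genes (0 of 10) and housekeeping genes (0 of 10) held none, and their medians lay between -0.15 and 0.10.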

How the data were processed

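RNA of 4 MV4-11 cultures was measured on 1 Affymetrix whole-transcript array each. The submitters' processing notes list RMA, Expression Console 1.3.1 (Affymetrix) and Transcriptome Analysis Console 1.0, and the deposited values are log2 signals. RMA draws the arrays to nearly equal distributions (medians 3.07 to 3.09), so a shift of most genes one way cannot be seen, and it understates differences of dim probe sets. Software settings and the genome build: not given in the sources used here. All 4 columns were used (0 unused).

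Of 53617 probe sets 23871 have 1 gene symbol, 1842 several and 27904 none listed. Symbols were set against RefSeq (GRCh38.p14): 23214 unchanged, 88 updated by Entrez ID, 565 by synonym and 4 kept. With 1 array per group, sizes of 2-fold and 1.5-fold were used and no test was made.

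The comparison, 56 gene lists and 8 marker lists were chosen with earlier results of these data known. Genes were named by a rule: the 20 largest differences each way, list members past 1.5-fold (otherwise the extreme member each way), the RUNX genes and CBFB. Paralogues and partners of these, the genes just inside and outside the level limit, and markers are given as values only and, like TXNRD1, NQO1, GCLM, CCNA1, CDKN1A, CDKN1B and ATF4, were picked after their values were seen. The 7 promoter motifs and the joining of 13 lists were also chosen with results known. Alternatives were other level limits, other probe set rules, cyclic loess (limma 3.58.1 in R 4.3.3), protein-coding genes alone, and list means.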

Additional observations from a re-analysis of the deposited data

How the results depend on the processing

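Counts depend most on the level limit. With 5.5 log2 units required, 15 genes were higher at 2-fold and 133 at 1.5-fold, against 28 and 228. With no limit, 47 were higher at 2-fold, 476 higher at 1.5-fold and 572 lower at 1.5-fold, against 28, 228 and 333. The other counts stayed within 1.5 times under every alternative run, and no named gene past 1.5-fold changed sign. Among list medians, that of E2F factors went from -0.27 to -0.54 at 5.5 and, with no limit, that of interferon genes from 0.24 to 0.08 and that of hypoxia genes from 0.04 to -0.13. The cause was not tested. RRM2 went from -0.81 to -0.51 with its probe sets averaged. Cyclic loess moved the median over all genes from 0.00 to -0.01. With signals near background RMA compresses differences, which limits the dim genes. No paired analysis was possible because each group has 1 array and all groups share replicate number 1 alone.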
